A study of Rattus norvegicus with 11 samples.

Results

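The mitochondrially encoded subunits of complex I are 7 genes, Mt-nd1 (ENSRNOG00000030644), Mt-nd2 (ENSRNOG00000031033), Mt-nd3 (ENSRNOG00000033615), Mt-nd4l (ENSRNOG00000031053), Mt-nd4 (ENSRNOG00000029707), Mt-nd5 (ENSRNOG00000029971) and Mt-nd6 (ENSRNOG00000029042). They were taken by these Ensembl identifiers, all 7 of which are among the 32883 gene IDs of the deposited table, and all 7 had enough counts to be among the 14979 genes tested. Rat cardiac tissue was studied by RNA sequencing in 11 libraries, in a series on canagliflozin and aerobic exercise in chronic heart failure. All rats were Sprague Dawley, and the labels give neither age nor sex and do not say whether libraries came from separate animals. The control group had 2 libraries (115 and 95). The isoproterenol group had 3 (79, 98 and 119), whose rats received a 10 day course of isoproterenol, an agonist of beta-adrenergic receptors that damages the heart, at a daily dose of 5 mg/kg. The canagliflozin group had 3 (78, 133 and 143), from rats that also received canagliflozin, an inhibitor of the renal glucose transporter SGLT2, at a daily dose of 3 mg/kg over 4 weeks. The exercise group had 3 (103, 113 and 57), from rats given isoproterenol and exercised 60 min per day for 4 weeks. The series title joins canagliflozin with exercise while the labels of the exercise libraries do not name the drug, so whether these rats received it cannot be told.

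Complex I (NADH:ubiquinone oxidoreductase) is the entry point of electrons from NADH into the respiratory chain and pumps protons across the inner mitochondrial membrane. Its membrane arm is built around the 7 proteins that mitochondrial DNA encodes, while the remaining subunits come from nuclear genes. Mitochondrial genes are transcribed as long polycistronic RNAs that are cut into single mRNAs. All of these genes except Mt-nd6 are read from the heavy-strand transcript, and Mt-nd6 is the only protein-coding gene on the light-strand transcript. The heart is rich in mitochondria, so that these RNAs are among the most abundant in cardiac tissue. In bulk tissue, fewer cells of a type and less RNA per cell cannot be told apart.

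Identity was checked by gene model length, which the deposited counts and FPKM values (counts scaled by gene length and by the library's total) give together. The lengths were 955 bases for Mt-nd1, 1039 for Mt-nd2, 348 for Mt-nd3, 297 for Mt-nd4l, 1378 for Mt-nd4, 1830 for Mt-nd5 and 519 for Mt-nd6, which are close to those known for the mitochondrial genes of these names. Every other ID with the length of a member had a lower mean FPKM, at most 1705 beside the 18418 of Mt-nd1, 495 beside the 19839 of Mt-nd3 and 1345 beside the 3161 of Mt-nd6. By mean FPKM the 7 genes ranked from 5 (Mt-nd3) to 19 (Mt-nd6) among all gene IDs. The annotation used here pairs 0 of the Ensembl IDs with symbols, so nuclear complex I subunits, assembly factors, mitochondrial transcription genes and cell type markers were not analysed here, and the labelled tissue could not be checked against its markers.

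Total counts ran from 14742164 to 25034831 per library. Control library 95 stood apart from the other 10 libraries in measures over all genes: 14692 genes had a count in it, against 16916 to 17703 in the others, and its TMM factor (the scaling that edgeR applies to the library size) was 0.568, against 0.910 to 1.23. Across genes, the Spearman correlation of its level relative to the other libraries with gene length was -0.220, the most negative of all libraries, followed by -0.199 in exercise library 57, while canagliflozin libraries 133 and 143 were at 0.295 and 0.396. Since this library is 1 of the 2 controls, the comparisons with control are also given without it.

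Together the 7 genes took between 4.48 and 9.63% of all counts in a library. In the control libraries the share was 6.21% (115; 95% Wilson interval 6.20 to 6.22%) and 9.63% (95; 9.61 to 9.64%). With isoproterenol it was 7.91% (79), 4.78% (98) and 8.03% (119), with canagliflozin 7.47% (78), 6.10% (133) and 7.73% (143), and in the exercise group 5.57% (103), 4.48% (113) and 7.59% (57). The means were 7.92 ± 2.42% (SD, n = 2) in control, 6.91 ± 1.84% (n = 3) with isoproterenol, 7.10 ± 0.877% (n = 3) with canagliflozin and 5.88 ± 1.58% (n = 3) in the exercise group. The ranges of all 4 groups overlapped, and in 3 of the 4 groups, canagliflozin being the exception, libraries of the same group spanned more than the 4 means did. The intervals cover counting error only and are far narrower than the spread between libraries.

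Per unit length the members fell into a graded order. The median FPKM over the 11 libraries was 17358 for Mt-nd1, 15643 for Mt-nd2, 12916 for Mt-nd3, 10512 for Mt-nd4, 7833 for Mt-nd4l, 3520 for Mt-nd5 and 3129 for Mt-nd6. Mt-nd4 exceeded Mt-nd4l in 11 of 11 libraries, and Mt-nd4l exceeded Mt-nd5 in 11 of 11. The other neighbours changed places in some libraries. Mt-nd1 was above Mt-nd2 in 7 of 11, Mt-nd2 above Mt-nd3 in 9, Mt-nd3 above Mt-nd4 in 9 and Mt-nd5 above Mt-nd6 in 8. The 3 libraries with Mt-nd6 above Mt-nd5 were control 95, isoproterenol 98 and exercise 57, which belong to 3 different groups.

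**Figure D1:**
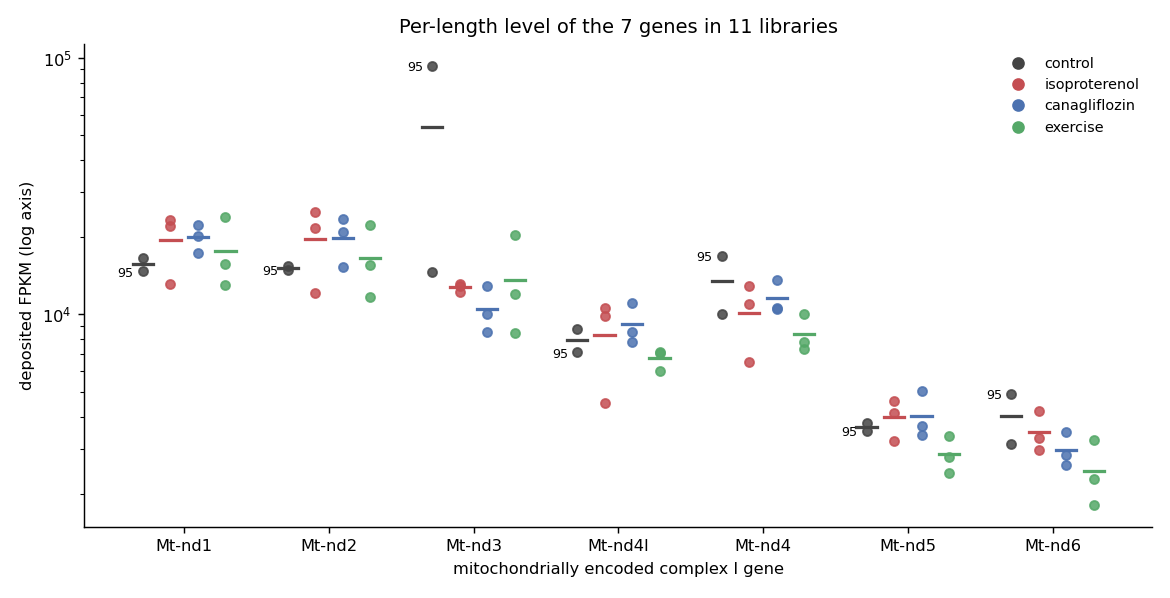
Deposited FPKM (log axis) of the 7 genes, with a point for each of the 11 libraries, coloured by group, and a short line at each group's mean. Control library 95 is marked, and its Mt-nd3 point at 92874 FPKM lies above every other point. In this unit the exercise libraries lie below both controls for Mt-nd4 and Mt-nd5, where 21.3% of tested genes were apart in either direction. They lie below all canagliflozin libraries for Mt-nd4l, Mt-nd4 and Mt-nd5, where 13.5% of tested genes were apart. Against both controls, Mt-nd3 is lower with isoproterenol (13% of tested genes apart) and canagliflozin (28.3%), and Mt-nd1 is higher with canagliflozin. With TMM scaling all 7 members overlapped between exercise and canagliflozin.

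Mt-nd1 and Mt-nd2, the members at the 5′ end of the heavy-strand transcript, had the highest levels and moved together. Mt-nd1 encodes the subunit next to the quinone-binding site, where the membrane arm meets the peripheral arm. Its FPKM was 16659 (115) and 14725 (95) in control, 22198 (79), 13096 (98) and 23229 (119) with isoproterenol, 22263 (78), 17358 (133) and 20279 (143) with canagliflozin, and 15740 (103), 13056 (113) and 23999 (57) in the exercise group. Exercise library 57 was the highest, exercise library 113 and isoproterenol library 98 were the lowest. In FPKM the canagliflozin libraries lay above both controls, where 28.3% of tested genes had these groups apart, and every other pair of groups overlapped. With TMM scaling library 95 was the highest for this gene, and the canagliflozin and control groups overlapped. Mt-nd2, which encodes an antiporter-like proton-pumping subunit, ran from 11691 (113) to 25154 (79) FPKM. The Mt-nd2 to Mt-nd1 ratio of FPKM stayed between 0.878 and 1.13. Of the 21 pairs of members this pair had the smallest spread, with an SD of 0.11 for its log2 ratio.

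In FPKM Mt-nd3 was the member that varied most over the 11 libraries, which rested on control library 95. It encodes a small subunit whose loop near the quinone site is known to switch between the active and the deactive form of the enzyme. Its counts in the control libraries were 77101 (115) and 476470 (95), in total 0.511 and 3.23% of those libraries. Its FPKM was 14686 (115) and 92874 (95) in control, 13136 (79), 12270 (98) and 12916 (119) with isoproterenol, 12956 (78), 10026 (133) and 8547 (143) with canagliflozin, and 12000 (103), 8491 (113) and 20329 (57) in the exercise group. Library 95 was 7.38 times the median of the other 10 libraries and 4.57 times the highest of them. The other control library lay within the range of the treated libraries, but of these only exercise library 57 was above it. The 3 isoproterenol libraries were close together, at 12774 ± 450 FPKM (SD, n = 3), while the control mean of 53780 ± 55287 FPKM (n = 2) had an SD above the mean.

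No other member was raised in library 95 to the extent of Mt-nd3. In that library Mt-nd1, Mt-nd2 and Mt-nd4l were at 0.782, 0.814 and 0.870 times the median FPKM of the other 10 libraries, Mt-nd5 was at 0.996 times, and Mt-nd4 and Mt-nd6 were at 1.64 and 1.61 times. The direction depended on the unit. In CPM (counts per 1000000 of effective library size, which is the total times the TMM factor), the scale of the tests, library 95 was at 1.59, 1.64, 1.60 and 1.84 times the median of the others for Mt-nd1, Mt-nd2, Mt-nd4l and Mt-nd5, at 2.95 and 2.88 times for Mt-nd4 and Mt-nd6 and at 13.7 times for Mt-nd3. It was the highest library in CPM for every member except Mt-nd2, where it was next to highest. Mt-nd3 thereby made up 59.9% of the summed FPKM of the 7 genes in library 95, against 10.3 to 22.6% in the others. The Mt-nd3 to Mt-nd1 ratio of FPKM, looked at after the values had been seen, was 6.31 in library 95 and 0.421 to 0.937 elsewhere. With library 95 set aside, Mt-nd3 still ranged 2.39-fold, from 8491 (113) to 20329 (57) FPKM, both in the exercise group. In FPKM that was within the range of the other members, which spanned 1.84-fold (Mt-nd1) to 2.46-fold (Mt-nd4l) over the same 10 libraries. In CPM Mt-nd3 spanned 3.06-fold over these 10 libraries, the widest of the 7, beside 2.07-fold (Mt-nd5) to 2.85-fold (Mt-nd4l) for the others. The low number of genes detected and the negative length trend of library 95 stand beside these values, and their part in the Mt-nd3 level was not tested.

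**Figure D2:**
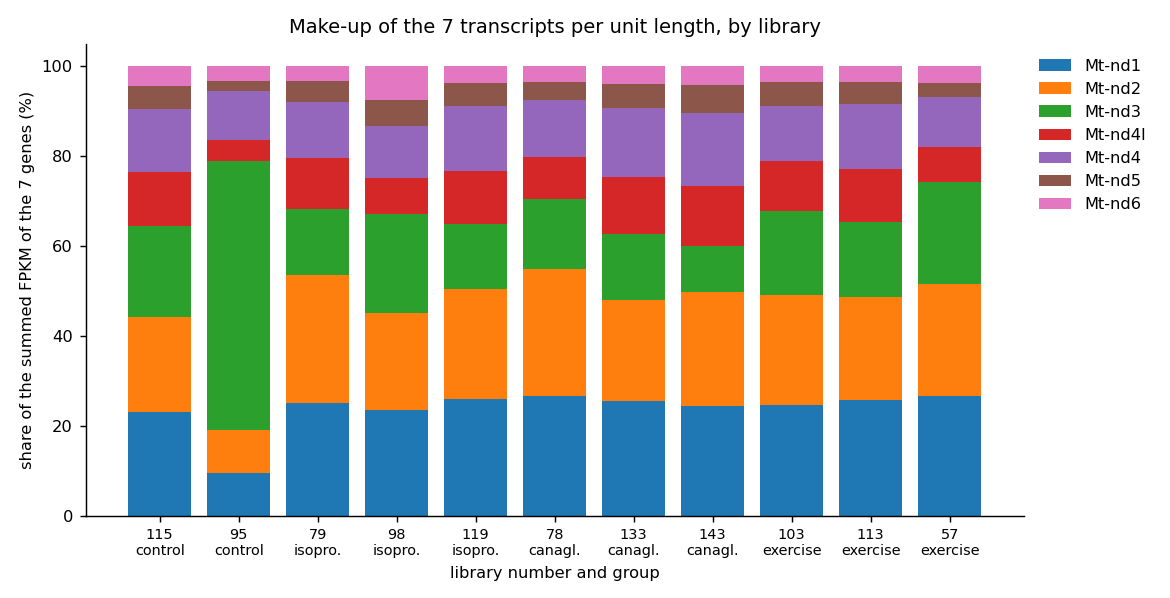
Share (%) of the summed FPKM of the 7 genes taken by each gene, as stacked bars for the 11 libraries in group order (isopro. is isoproterenol, canagl. is canagliflozin). Mt-nd3 takes 59.9% in control library 95 and at most 22.6% in any other, and Mt-nd6 is widest in isoproterenol library 98, at 7.48%.

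Mt-nd4l and Mt-nd4 are translated from 1 shared bicistronic mRNA in which their reading frames overlap. Mt-nd4 encodes an antiporter-like proton-pumping subunit and Mt-nd4l a small membrane subunit next to Mt-nd6. The FPKM of Mt-nd4 was 10076 (115) and 16917 (95) in control, 11012 (79), 6514 (98) and 12872 (119) with isoproterenol, 10560 (78), 10512 (133) and 13614 (143) with canagliflozin, and 7777 (103), 7326 (113) and 9999 (57) in the exercise group. Library 95 was the highest and isoproterenol library 98 the lowest. Mt-nd4l was lowest in library 98 as well, at 4503 FPKM, but highest in canagliflozin library 143, at 11097 FPKM. The Mt-nd4l to Mt-nd4 ratio of FPKM was 0.420 in library 95 and 0.691 to 0.921 in the other 10. Over those 10 libraries the log2 levels of both genes had a Pearson correlation of 0.938, and with library 95 included it was 0.681 (n = 11, a description, since libraries share the scaling of FPKM).

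Mt-nd5 and Mt-nd6, which lie next to each other on opposite strands, had the lowest levels per unit length. Mt-nd5 encodes the antiporter-like subunit at the far end of the membrane arm. Its FPKM was 3790 (115) and 3520 (95) in control, 4136 (79), 3214 (98) and 4586 (119) with isoproterenol, 3396 (78), 3671 (133) and 5049 (143) with canagliflozin, and 3370 (103), 2415 (113) and 2773 (57) in the exercise group. Exercise libraries 113 and 57 were the lowest of all. Library 95 was within the range of the others for this gene in FPKM, but in CPM it was the highest, at 11336 and 1.36 times the highest of the others.

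Mt-nd6 encodes a membrane subunit in the proton path near the quinone site, and its FPKM followed another order. It was 3129 (115) and 4919 (95) in control, 2966 (79), 4187 (98) and 3314 (119) with isoproterenol, 2834 (78), 2586 (133) and 3490 (143) with canagliflozin, and 2287 (103), 1812 (113) and 3249 (57) in the exercise group. Isoproterenol library 98, which was lowest or next to lowest in Mt-nd1, Mt-nd2, Mt-nd4l and Mt-nd4, was the next highest after library 95 in Mt-nd6. Across the 11 libraries the log2 FPKM of Mt-nd6 had Pearson correlations of 0.0753 with Mt-nd1 and 0.131 with Mt-nd2, against 0.964 between Mt-nd1 and Mt-nd2 (n = 11, descriptions). Without library 95 these were 0.312, 0.305 and 0.967. Over all 11, the correlation of Mt-nd6 was 0.654 with Mt-nd3, 0.518 with Mt-nd4, 0.397 with Mt-nd5 and -0.0175 with Mt-nd4l.

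The ratio of Mt-nd6 to Mt-nd5, genes of opposite strands, split the libraries but not the groups. The ratio of FPKM was 0.826 (115) and 1.40 (95) in control, 0.717 (79), 1.30 (98) and 0.722 (119) with isoproterenol, 0.834 (78), 0.704 (133) and 0.691 (143) with canagliflozin, and 0.679 (103), 0.751 (113) and 1.17 (57) in the exercise group. Libraries 95, 98 and 57 had values of 1.17 to 1.40, and no other library exceeded 0.834. The groups accounted for 23.0% of the sum of squares of the log2 ratio, with p = 0.576 by an exact permutation test over all 92400 ways to assign the libraries. This p is the fraction of assignments that gave at least as large a share. For the Mt-nd4l to Mt-nd4 ratio the groups accounted for 27.1% (exact permutation p = 0.541). For the Mt-nd1 to Mt-nd5 ratio, which ran from 4.02 (143) to 8.66 (57), they accounted for 29.2% (exact permutation p = 0.461). These shares depended on single libraries. For Mt-nd6 to Mt-nd5 the share was 9.91% without control library 95, 41.8% without 115, 39.3% without 98 and 36.2% without 57. The exact permutation p was 0.295 without 98 and 0.307 without 57. For Mt-nd4l to Mt-nd4 it was 9.82% without library 95 and 83.0% without 115 (exact permutation p = 0.0918, with 95 as the lone control). For Mt-nd1 to Mt-nd5 it was 46.8% without exercise library 103 and 16.1% without 57 (exact permutation p = 0.220 and 0.777). The 3 tests are one-sided by construction, and each had an adjusted p of 0.576 over the 3 ratios by the same exact permutation tests and the Benjamini-Hochberg method. The length trend across genes in libraries 95, 98 and 57 was -0.220, -0.0384 and -0.199. In libraries 103, 113, 78 and 79, with ratios of 0.679 to 0.834, it was -0.106, -0.108, -0.0797 and -0.0618. Its Pearson correlation with the log2 ratio of Mt-nd6 to Mt-nd5 was -0.565 over the 11 libraries and -0.461 without library 95 (descriptions). In the same order it was -0.409 and -0.571 for Mt-nd1 to Mt-nd5, and -0.569 and -0.716 for Mt-nd3 to Mt-nd1. For Mt-nd4l to Mt-nd4 it was 0.385 and 0.127, and for Mt-nd2 to Mt-nd1 -0.114 and -0.0554. The part of the length trend in the ratios was not tested.

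**Figure D3:**
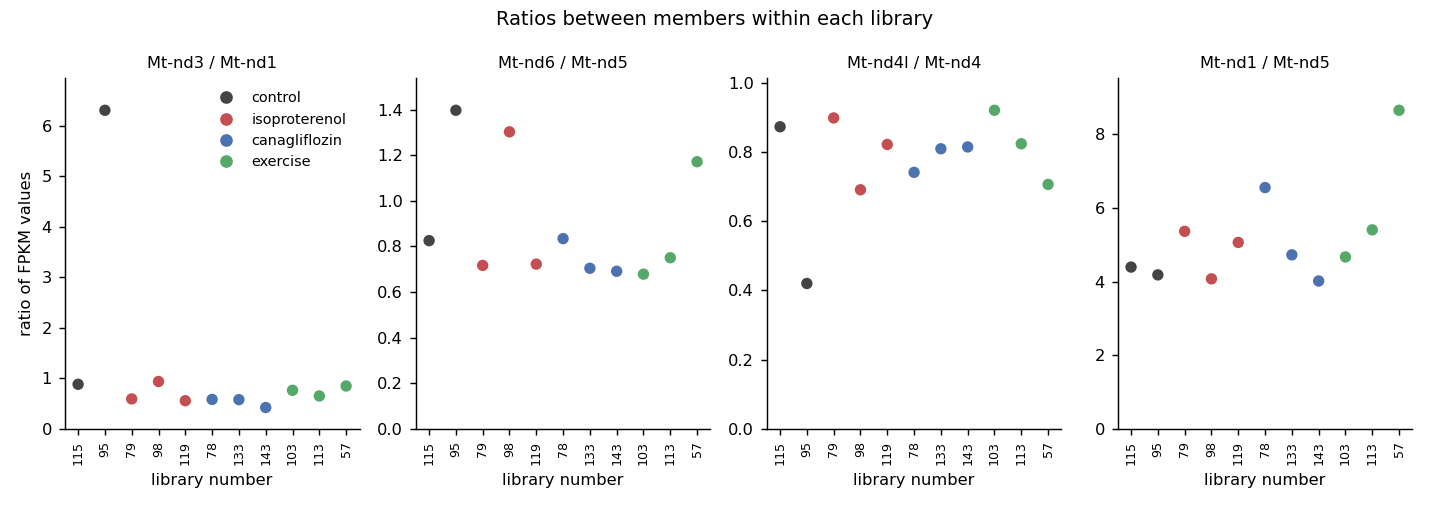
Ratios of FPKM between members within each of the 11 libraries (points, coloured by group, linear axes from 0). Library 95 stands apart in Mt-nd3 to Mt-nd1 (6.31) and in Mt-nd4l to Mt-nd4 (0.420), libraries 95, 98 and 57 in Mt-nd6 to Mt-nd5 (1.17 to 1.40), and library 57 in Mt-nd1 to Mt-nd5 (8.66).

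Isoproterenol was compared with control to find what the heart failure model changed. No member passed the edgeR quasi-likelihood test at an adjusted p under 0.05, where 0% of the 14979 tested genes did. Only Mt-nd3 had an unadjusted p under 0.05, where 5.21% of tested genes (780) did. Its log2 fold change was -2.83 (SE 0.836; 95% interval -4.68 to -0.97) with an edgeR adjusted p of 0.840. In CPM Mt-nd3 was at 5026, 3626 and 4418 with isoproterenol and at 4955 and 56882 in control, so the groups overlapped and the difference came with library 95. Without that library the log2 fold change was -0.18 (95% interval -1.60 to 1.24), with 115 as the lone control and its spread assumed to be that of the other groups.

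For the other members the log2 fold change of isoproterenol against control was -0.97 for Mt-nd4, -0.80 for Mt-nd6 and between -0.33 and -0.06 for Mt-nd1, Mt-nd2, Mt-nd4l and Mt-nd5. The median over the 7 was -0.33, beside 0.07 over all tested genes. Without library 95 it was 0.10 and 5 of the 7 were above 0. The median also moved to -0.13 without isoproterenol library 98, with 3 of 7 above 0, to -0.56 without 79 and to -0.64 without control library 115. The signs of single members depended on the scaling and on library 95. With library totals as the only scaling Mt-nd1, Mt-nd2, Mt-nd4l and Mt-nd5 were at 0.31, 0.38, 0.07 and 0.12, and without library 95 Mt-nd1, Mt-nd2, Mt-nd4, Mt-nd5 and Mt-nd6 were at 0.28, 0.41, 0.05, 0.10 and 0.16. All 7 members had overlapping groups in CPM, while groups did not overlap in 13.4% of tested genes. With 115 as the lone control, it lay outside the isoproterenol range for 1 member (Mt-nd6, isoproterenol higher), beside 39% of tested genes. In FPKM the groups were apart for 1 member, Mt-nd3, which was lower with isoproterenol whether library 95 was kept (13% of tested genes) or left out (36.4%).

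Canagliflozin after isoproterenol was compared with isoproterenol alone, which does not involve the controls. No member passed (edgeR, 0% of tested genes), and none had an unadjusted p under 0.05, where 3.3% of tested genes (495) did. The 7 log2 fold changes lay between -0.37 for Mt-nd3 and 0.04 for Mt-nd4, with a median of -0.12 beside -0.01 over all tested genes. With library totals as the only scaling, 5 of the 7 were above 0 and the median was 0.02. The median also turned with single libraries. It was 0.09 without isoproterenol library 79 and 0.04 without canagliflozin library 133, with 4 of 7 above 0 each time. It was -0.38 without isoproterenol library 98 and -0.32 without canagliflozin library 78, with 0 of 7 above 0, and -0.03 without isoproterenol library 119. Mt-nd6 had the smallest p of the 7, with a log2 fold change of -0.33 (SE 0.445; 95% interval -1.32 to 0.66) and an edgeR adjusted p of 0.999. Its CPM was 1546, 1136 and 1471 with canagliflozin and 1692, 1845 and 1690 with isoproterenol alone, so this was the 1 member of 7 whose groups did not overlap, where 9.48% of tested genes showed no overlap. In FPKM, where 7.36% of tested genes were apart, no member was, since for Mt-nd6 canagliflozin library 143 was at 3490 and isoproterenol library 79 at 2966. The intervals of the 7 members reached from -2.02 to 1.28, so a 2-fold decrease lies within the interval of all 7 and a 2-fold increase within those of Mt-nd2, Mt-nd3 and Mt-nd4.

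The exercise group was set against isoproterenol alone in the same way. No member passed (edgeR, 0%) or had an unadjusted p under 0.05, where 1.48% of tested genes (222) did. For 6 of the 7 the value was below 0, with log2 fold changes from -0.52 for Mt-nd5 to 0.10 for Mt-nd3 and a median of -0.31 beside -0.01 over all tested genes. Without isoproterenol library 79 the median was -0.11 with 4 of 7 below 0, without 119 it was -0.18 and without exercise library 113 it was -0.19. Without isoproterenol library 98 it was -0.60 and without exercise library 57 it was -0.55, with 7 of 7 below 0 in both. Mt-nd3 was then at -0.02 and -0.40. Mt-nd5 had a log2 fold change of -0.52 (SE 0.396; 95% interval -1.40 to 0.36) and an edgeR adjusted p of 1. Its CPM was 5763 (103), 4021 (113) and 5295 (57) in the exercise group and 8322 (79), 4994 (98) and 8250 (119) with isoproterenol alone. Isoproterenol library 98 was below 2 of the 3 exercise libraries, and 0 of 7 members had groups apart, beside 8.61% of tested genes (0 in FPKM as well, beside 7%).

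Exercise and canagliflozin were compared directly. Again no member passed (edgeR, 0%) or had an unadjusted p under 0.05, beside 2.42% of tested genes (363). The log2 fold changes of exercise against canagliflozin lay between -0.39 for Mt-nd5 (95% interval -1.27 to 0.49; edgeR adjusted p 0.999) and 0.47 for Mt-nd3 (95% interval -1.18 to 2.11), with a median of -0.17 beside -0.04 over all tested genes. Without exercise library 113 the median was 0.05 with 4 of 7 above 0. Without exercise library 57 it was -0.45 with 0 of 7 above 0, and Mt-nd3 was at -0.03. It was -0.10 without exercise library 103, -0.07 without canagliflozin library 78 and -0.37 without 133. In CPM all 7 members overlapped between the groups, where 14.5% of tested genes did not. In FPKM Mt-nd4l, Mt-nd4 and Mt-nd5 did not overlap and were lower with exercise, beside 13.5% of tested genes. The comparisons with isoproterenol share the same 3 isoproterenol libraries, and those with control share the same 2 controls, so they are not independent of each other.

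Canagliflozin was also compared with control. No member passed the edgeR test (0% of tested genes), and 2 had an unadjusted p under 0.05, where 14.4% of tested genes (2162) did. These were Mt-nd3, with a log2 fold change of -3.20 (SE 0.845; 95% interval -5.08 to -1.32) and an edgeR adjusted p of 0.318, and Mt-nd6, with -1.13 (SE 0.491; 95% interval -2.22 to -0.04) and an edgeR adjusted p of 0.335. Mt-nd3 was at 4741, 2954 and 2416 CPM with canagliflozin and at 4955 and 56882 CPM in control. Mt-nd6 was at 1546, 1136 and 1471 CPM with canagliflozin and at 1574 and 4493 CPM in control. Both genes had groups that did not overlap in CPM, as did 26.3% of tested genes, but the gap between canagliflozin library 78 and control library 115 was 4741 against 4955 CPM for Mt-nd3 and 1546 against 1574 CPM for Mt-nd6. The same 2 genes were apart from 115 as the lone control, beside 50.7% of tested genes. In FPKM Mt-nd6 overlapped, with canagliflozin library 143 at 3490 and control library 115 at 3129. Mt-nd3 (lower) and Mt-nd1 (higher) were the 2 members apart in FPKM, beside 28.3% of tested genes. Against 115 alone Mt-nd4 was higher in FPKM as well, beside 48.5%. The median log2 fold change of the 7 members was -0.46 with all libraries, -0.03 without library 95 and -0.77 without 115. Without library 95 the log2 fold changes were -0.56 (95% interval -1.95 to 0.83) for Mt-nd3 and -0.19 (95% interval -1.27 to 0.90) for Mt-nd6. With library totals as the only scaling, 1 member had an unadjusted p under 0.05 (1814 genes). The count was also 1 with edgeR restricted to these 2 groups (757 of 14311 genes), and 2 by DESeq2 (2856 genes). DESeq2 called Mt-nd3, with a log2 fold change of -3.24 at an adjusted p of 0.0145 (DESeq2), in a fit that called 1.6% of the genes tested.

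With all 11 libraries in the edgeR fit, exercise against control gave the most members with a low unadjusted p. None passed (edgeR, 0%), and 3 had an unadjusted p under 0.05, beside 4.85% of tested genes (727). Their log2 fold changes were -2.73 (SE 0.834) for Mt-nd3, -1.28 (SE 0.568) for Mt-nd4 and -1.29 (SE 0.491) for Mt-nd6, each with an edgeR adjusted p of 0.852. Without library 95 they were -0.07, -0.25 and -0.33. The number of members with an unadjusted p under 0.05 also moved with the fit. It was 0 when edgeR was restricted to these 2 groups (295 of 14023 genes) and 1 with library totals as the only scaling (441 genes). It was 1 without exercise library 103 or 113 (344 and 444 genes). By DESeq2, or without isoproterenol library 98, it was 4 (1122 and 852 genes). Mt-nd4l and Mt-nd5 were the 2 members whose groups did not overlap in CPM, beside 17.4% of tested genes. Mt-nd5 was at 5763, 4021 and 5295 CPM with exercise, below the 6724 and 11336 CPM of the controls. Mt-nd4l was at 1988, 1632 and 2190 CPM with exercise, below the 2534 and 3716 CPM of the controls. The same 2 genes were apart from 115 as the lone control, beside 46.6% of tested genes. In FPKM Mt-nd4 and Mt-nd5 were the 2 members apart, beside 21.3% of tested genes, and Mt-nd4l overlapped, with exercise library 103 at 7164 and control library 95 at 7110. Against 115 alone all 3 of these were lower in FPKM, beside 44.4%. The median log2 fold change of the 7 members was -0.85 with all libraries and -0.25 without library 95, beside 0.06 and 0.02 over all tested genes. With library totals as the only scaling it was -0.36, and Mt-nd1 and Mt-nd2 were above 0, at 0.17 and 0.13.

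**Figure D4:**
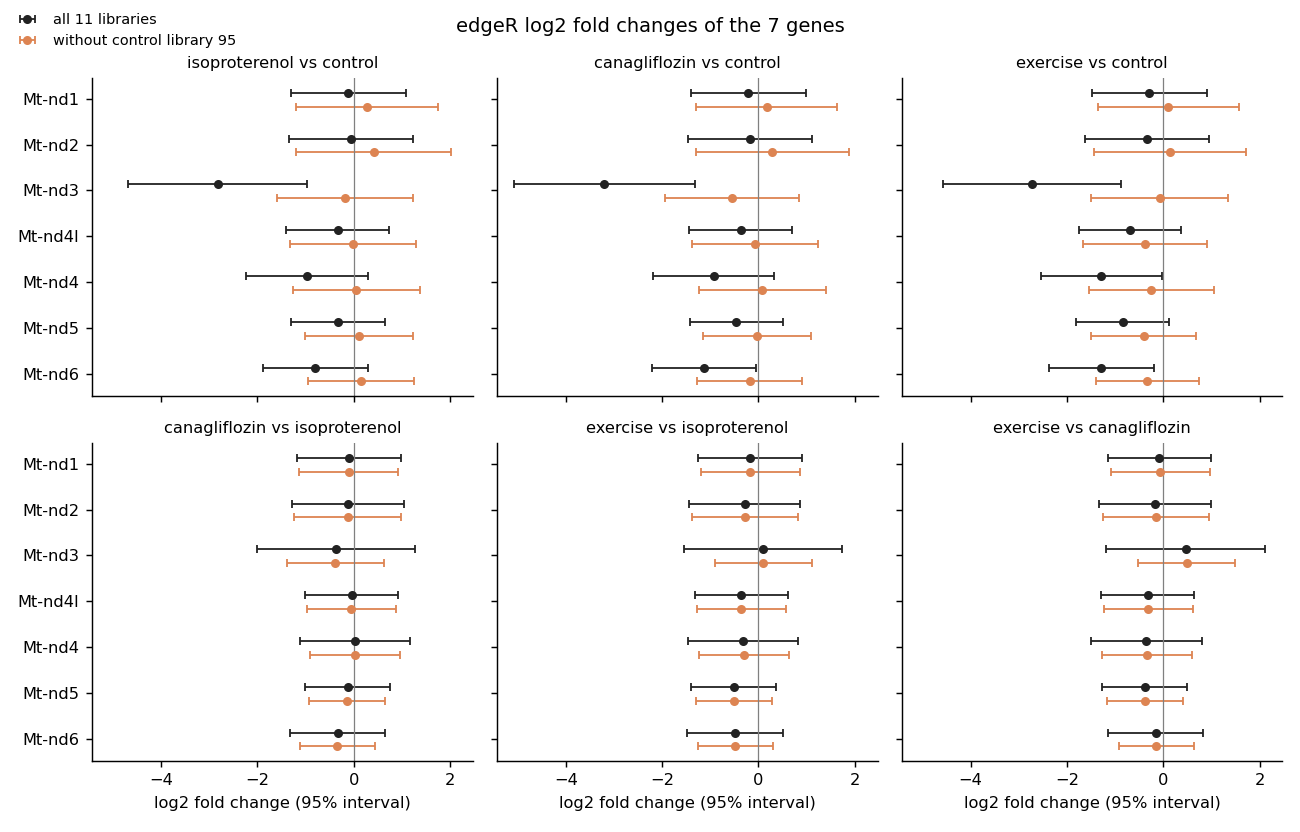
edgeR log2 fold changes of the 7 genes with 95% intervals in the 6 comparisons of 2 groups, from all 11 libraries (black) and without control library 95 (orange). In the upper panels, against control, Mt-nd3 moves from between -3.20 and -2.73 to between -0.56 and -0.07 when library 95 is left out, and in the lower panels, among the isoproterenol-treated groups, every interval spans 0.

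The joint test for any difference among the 4 groups called no member (edgeR, 0%), and Mt-nd3 alone had an unadjusted p under 0.05, beside 5.09% of tested genes (762). Its edgeR adjusted p was 0.909, and 0.998 without library 95. DESeq2 called it in the joint test with an adjusted p of 0.00460, among 0.788% of genes. With library 95 as the lone control, edgeR called Mt-nd3 in all 3 comparisons with control and in the joint test, Mt-nd6 for canagliflozin and for exercise, and Mt-nd4 for exercise. That fit called 17.1% of all tested genes for isoproterenol, 24.8% for canagliflozin, 17.6% for exercise and 8.47% in the joint test, so the members' calls stand among those of many other genes. Mt-nd3 then had log2 fold changes of -3.69 for isoproterenol, -4.06 for canagliflozin and -3.59 for exercise.

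The members were also compared in how they moved together across the 11 libraries, on log2 CPM. The Pearson correlation of each with the mean of the other 6 ran from 0.774 (Mt-nd3) to 0.954 (Mt-nd4). Without library 95 it ran from 0.548 (Mt-nd3) and 0.550 (Mt-nd6) to 0.935 (Mt-nd2) and 0.945 (Mt-nd1). These values are descriptions, since the libraries share 1 set of scaling factors. Of the genes outside the 7, ENSRNOG00000030371 and ENSRNOG00000031766 had the patterns most like the mean of the members, with Pearson correlations of 0.958 and 0.950 over 11 libraries and of 0.914 and 0.919 without library 95. By mean FPKM they ranked 3 and 4 of all gene IDs.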

How the data were processed

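RNA sequencing of rat cardiac tissue gave 11 libraries. Per the labels' protocols, a Qiagen kit served for total RNA and library preparation was by Illumina's usual procedure. CASAVA 1.8 and TopHat2 2.0.6 are named in the submitters' processing notes. Counter, strandedness, build and annotation release were not given in the sources used here. Reads of overlapping members (Mt-nd4l and Mt-nd4, or Mt-nd5 and Mt-nd6) and of nuclear copies of mitochondrial DNA may be shared between genes. The authors deposited raw counts per gene and, in the same table, FPKM values for each library, per the file headers. Libraries were matched to columns by number, and groups came from the labels. FPKM served for levels and ratios within a library, where it equals the count ratio divided by the ratio of lengths.

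Counts were tested with edgeR 4.0.16 (R 4.3.3), with TMM factors, filterByExpr (14979 genes kept of 32883), a robust quasi-likelihood fit of 4 group means to all 11 libraries and Benjamini-Hochberg adjustment over all tested genes, at a threshold of 0.05. Log2 CPM used a prior count of 2. Alternatives were DESeq2 1.42.0, limma-voom (version 3.58.1 of limma), other scalings, no filter, fits restricted to the groups compared and omission of each library in turn. The edgeR step and the permutation test were tested on simulated data. The spread in those data was set and not taken from these libraries, so power for the members was not measured. The mean log2 CPM of the 7 members had a pooled SD within groups of 0.522. P-values measure the spread between libraries, which may be technical. Exact tests of 3 libraries against 3, or of 2 against 3, cannot go below 0.1, so ratios were tested over all 4 groups together. Intervals on shares cover counting error only.

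The 7 members, the ratios and the lists were chosen with earlier results of these data known. The rule for named genes was all 7 members, lists matched by symbol, and the genes most alike in pattern, of which 2 are given because the IDs have no symbols here. The lists could not be matched. The Mt-nd3 to Mt-nd1 ratio and its neighbours were chosen after the values had been seen. matplotlib 3.10.9 drew the figures.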

Additional observations from a re-analysis of the deposited data

How the results depend on the processing

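No paired analysis was possible because the groups share no library number. The count ratio and the FPKM ratio are the same quantity up to gene length, so that alternative could not differ. The 3 ratio tests kept their side of the threshold under every alternative run. The shares between groups behind them moved, as given with the ratios.

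Signs of members' log2 fold changes turned in all 6 comparisons of 2 groups. Without library 95, 5 of 7 were above 0 for isoproterenol, 3 for canagliflozin and 2 for exercise against control, where 0 were with all libraries. With library totals as the only scaling these counts were 4, 4 and 2. Over libraries left out, the values for isoproterenol against control ran from -0.397 to 0.275 for Mt-nd1, -0.389 to 0.414 for Mt-nd2, -0.563 to 0.0144 for Mt-nd4l, -1.54 to 0.0542 for Mt-nd4, -0.640 to 0.104 for Mt-nd5 and -1.35 to 0.155 for Mt-nd6. With library totals they were 0.314 for Mt-nd1, 0.378 for Mt-nd2, 0.0661 for Mt-nd4l and 0.122 for Mt-nd5. Against control, Mt-nd4 for canagliflozin ran from -1.51 to 0.0824, and for exercise Mt-nd1 ran from -0.663 to 0.106 and Mt-nd2 from -0.706 to 0.132 (0.165 and 0.129 with library totals). For canagliflozin against isoproterenol, 1 of 7 was above 0 with all libraries, 4 without library 79 or 133, and 5 with library totals. Mt-nd4 there ran from -0.258 to 0.212. For exercise, 3 of 7 were above 0 against isoproterenol without library 79 and 4 against canagliflozin without library 113. With all libraries 1 of 7 was above 0 in each of these. Mt-nd3 ran from -0.403 to 0.373 for exercise against isoproterenol (-0.0154 by limma-voom) and from -0.0336 to 0.794 for exercise against canagliflozin. The FPKM check of overlap was added after seeing the data.

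The number of genes that passed was 0 in every comparison. DESeq2 called 2 for isoproterenol and 240 for canagliflozin against control, 11 for exercise against control, 2 for canagliflozin against isoproterenol, 1 for exercise against canagliflozin and 118 in the joint test, with 1 member, Mt-nd3, called for canagliflozin against control and in the joint test. limma-voom called 0 members. Over libraries left out, the calls ran from 0 to 2688 for isoproterenol, 0 to 3900 for canagliflozin and 0 to 2766 for exercise against control and 0 to 1332 in the joint test, the upper end each time without control library 115. Members called ran from 0 to 1, 0 to 2, 0 to 3 and 0 to 1 in that order.

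Relative to the counts outside the 10 most abundant genes, of which 3 are members, the 7 genes stood at 12.2% in control (8.57% in library 115 and 15.8% in 95), 9.98% with isoproterenol, 10.1% with canagliflozin and 8.30% in the exercise group. These are ratios and not shares, since the 3 members are left out of the denominator only. With these 3 kept in it, the share was 8.06% (115) and 14.6% (95) in control. In the isoproterenol-treated libraries it was 5.57% (113) to 10.9% (79). Depth was not limiting for the members, which had at least 18315 counts in each library, and the number of libraries limits the precision.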
